A study of Mus musculus with 18 samples.

Results

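Genes of small calcium-binding proteins, of annexins and of galectin-1 were followed in mouse CD8+ T cells: S100a4, S100a6, S100a10, S100a11, S100a13, Anxa1, Anxa2, Anxa5, Anxa6 and Lgals1. They are 10 of the 55487 genes of the deposited count table and were found there by the Ensembl identifiers that GENCODE M21 gives for their symbols. They were selected on the counts of S100a6 at 72 h, whose late rise was already known, so S100a6 is described without a test throughout, and no member's change within a population up to 72 h is tested. Differences between the populations at 72 h are tested for the other members. Other earlier results of these libraries were also known when the members were chosen. Counts of members set beside shares of all genes are therefore no independent evidence of a pattern.

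The cells came from spleens and lymph nodes of wild-type C57BL/6J mice. A CD8+ pool was sorted by flow cytometry on CD137, also called 41BB, a costimulatory receptor of the TNF receptor family encoded by Tnfrsf9. The 41BB+ cells, named Tpam in the study, and the 41BB- cells, named conventional, were lysed directly (0 h) or cultured for 24 h or 72 h with beads that carry antibodies to CD3 and CD28 and so trigger the T cell receptor together with its costimulator CD28. The 18 libraries make 6 groups of 3, called biological triplicates by the submitters. The sources used here give neither the age and sex of the mice nor whether a replicate was 1 mouse or several, and no allele or agent other than the beads is named. Sex-linked transcripts, given below, show that several libraries held transcripts of both sexes, as a pool of several mice would. No untreated culture of 24 h or 72 h is among the samples, so the beads and the time in culture cannot be told apart.

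S100 proteins are small dimers that bind calcium through EF hands and then dock onto targets such as annexins and the cytoskeleton. Annexins bind phospholipid membranes in the presence of calcium and take part in membrane repair, vesicle traffic and the linking of membrane to actin. Galectin-1 is a secreted lectin that binds galactose-containing glycans on surface proteins of T cells. In mouse CD8+ T cells several of these genes, S100a4, S100a6, S100a10, Anxa1, Anxa2 and Lgals1 among them, are commonly found at high levels in effector and memory cells and low in naive cells.

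The S100a members lie on chromosome 3 with most of their family (coordinates are GRCm38, from GENCODE M21). S100a13 (chr3:90514435-90524581), S100a4 (chr3:90603771-90606045) and S100a6 (chr3:90612882-90624181) follow each other on the plus strand, with gaps of 79.19 kb and 6.837 kb. S100a11 (chr3:93520488-93526287) starts 2896 kb further on, and S100a10 (chr3:93555080-93564643) follows it after 28.79 kb. Of the 14 genes named S100a on chromosome 3, the 9 that are not members stayed at or below a group mean of 3.45 CPM (counts scaled to a library total of 1e+06). The other members are scattered: Anxa5 on chr3:36448923-36475894 (minus), Anxa2 on chr9:69453620-69491795 (plus), Anxa6 on chr11:54979108-55033445 (minus), Lgals1 on chr15:78926725-78930465 (plus) and Anxa1 on chr19:20373428-20390944 (minus). All 10 are protein-coding, and each value below is for the whole gene.

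Promoters are printed of 3 members because their genes frame the late pattern: S100a6 and Anxa2, the members with the largest fitted change from 24 h to 72 h in 41BB- cells, and S100a11, the tested S100a gene with the smallest. The sequences are the 250 bases before the start site in the RefSeq promoter table of GRCm38.p6, which held 7 of the 10 members (S100a10, Anxa6 and Lgals1 were not among them), 5′ to 3′ on the plus strand. Capitals mark the places where the letters of a searched motif were found on either strand. For the AP-1 element, bound by Fos and Jun proteins, those letters were TGANTCA. For the E-box of basic helix-loop-helix factors they were CACGTG. For the GC box, bound by Sp1 and its relatives, they were GGGCGG. For RUNX factors, which act in T cell development, they were TGTGGT. For the TATA box of the core promoter they were TATAAA.
S100a6, chr3:90612644-90612893: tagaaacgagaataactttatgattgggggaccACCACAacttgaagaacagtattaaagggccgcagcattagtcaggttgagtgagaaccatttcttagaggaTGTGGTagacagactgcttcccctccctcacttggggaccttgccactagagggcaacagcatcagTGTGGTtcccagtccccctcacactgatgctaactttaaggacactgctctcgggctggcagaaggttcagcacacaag
Anxa2, chr9:69453433-69453682: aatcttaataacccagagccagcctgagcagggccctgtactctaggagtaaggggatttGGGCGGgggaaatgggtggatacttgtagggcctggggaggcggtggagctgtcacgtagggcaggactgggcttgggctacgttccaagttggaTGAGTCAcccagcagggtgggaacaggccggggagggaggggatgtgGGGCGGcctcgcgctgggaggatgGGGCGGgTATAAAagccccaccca
S100a11, chr3:93520246-93520495: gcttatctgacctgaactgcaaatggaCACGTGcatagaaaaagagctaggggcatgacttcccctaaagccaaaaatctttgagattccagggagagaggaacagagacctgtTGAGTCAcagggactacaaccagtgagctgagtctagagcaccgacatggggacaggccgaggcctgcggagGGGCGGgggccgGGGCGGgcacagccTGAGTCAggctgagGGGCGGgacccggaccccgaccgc

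The S100a6 stretch holds 3 RUNX letters, at 217, 145 and 79 bases before the start. An E-box lies 14 bases past the start of S100a6, beyond the printed stretch. Anxa2 holds AP-1 letters 95 bases before the start and a TATA box at 17 bases, and S100a11 holds AP-1 letters at 136 and 38 bases. In the 32851 mouse promoters of the table, each of 300 bases (250 before and 50 after the start), RUNX letters occur in 16.8%, AP-1 letters in 7.81%, the E-box in 7.15%, the GC box in 35.7% and the TATA box in 13.6%. A match is a string of letters, and no binding was measured.

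The libraries held 3085241 to 4239795 counts with 16503 to 22816 genes detected. In each group at least 1 count was seen for every defining gene of CD8 T cells, and their summed level ran from 1102 to 3214 CPM. Markers of other cells were low. The 10 myeloid markers summed to 89.9 CPM in the 41BB+ 24 h library of replicate 2, which also held 55 counts of S100a8 and S100a9 together, and to at most 21.3 CPM in every other library. At 72 h, where most members were highest, they summed to at most 6.85 CPM with Lyz2, Itgam, Csf1r, Cd14 and Mpeg1 at 0. The stromal and endothelial list other than Pecam1, a gene that T cells can express, reached at most 7.13 CPM, and with Pecam1 it ran from 15.1 to 281 CPM. Of the CD4 T cell list, Cd4 itself was at or below 1.28 CPM in every library, while with Zbtb7b and Cd40lg the list summed to between 1.14 and 2.92 CPM at 0 h and between 20.5 and 50.6 CPM at 72 h. B cell, NK cell, and platelet and erythroid lists reached at most 15.9, 5.89 and 6.77 CPM. The 6 dendritic markers summed to between 30.0 and 81.0 CPM in 41BB+ cells and 20.5 and 34.7 CPM in 41BB- cells at 0 h. At 24 h they summed to between 13.3 and 44.5 CPM in 41BB+ and 14.2 and 19.2 CPM in 41BB- cells, and at 72 h to at most 14.8 CPM. Sex-linked transcripts showed that a replicate number does not stand for the same mice at every time. In replicate 3, Xist had 0 or 1 count and 4 Y-linked genes 750 to 945 counts at 0 h and 24 h, but at 72 h Xist had 2214 and 2459 counts and the Y-linked genes 0 and 5. In replicate 1, Xist had 1340 and 1666 counts and the Y-linked genes 6 and 0 at 0 h. At 24 h Xist had 821 and 593 counts and the Y-linked genes 213 and 238. Changes from 0 h to 24 h thus also compare unlike mixes of the sexes, whose part was not tested. Replicate 2 held both kinds in every library, with 403 to 903 counts of Xist and 383 to 553 of the Y-linked genes. Within each time, both populations of a replicate number were alike in sex-linked transcripts.

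Before stimulation, the 41BB+ cells held less of 5 of the 9 members other than S100a6 than the 41BB- cells and more of none (0 higher). S100a10, S100a11, S100a13, Anxa5 and Anxa6 were each lower in 41BB+ cells, by 1.74-fold to 2.54-fold. Over all 13150 genes tested, 17.3% were lower and 22.2% higher in 41BB+ cells at an adjusted p under 0.05 (edgeR's quasi-likelihood test with Benjamini-Hochberg adjustment over all genes tested). The filter on low counts was passed by 8 of the 10 members, S100a6 only through its 72 h libraries, and S100a4 and Anxa1 did not pass. The libraries measure shares of RNA in bulk samples, so fewer cells that make a transcript and less of it per cell cannot be told apart.

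Anxa6, an annexin with a doubled core that binds membranes and actin, differed most. Its level was 185, 163 and 209 CPM in the 41BB+ libraries and 433, 497 and 474 CPM in the 41BB- libraries (replicates 1, 2 and 3, the order used throughout). The lowest 41BB- library lay above the highest 41BB+ library, and the log2 fold change was -1.35 ± 0.11 (SE, adjusted p = 9.61e-11). Anxa5, the annexin used to detect exposed phosphatidylserine on dying cells, had 14.1, 12.6 and 12.6 CPM in 41BB+ cells and 25.4, 32.1 and 29.6 CPM in 41BB- cells. Its groups did not overlap either, with a log2 fold change of -1.16 ± 0.21 (adjusted p = 7.25e-05).

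S100a10 (p11), which unlike other S100 proteins does not need calcium to bind its partner annexin A2, had 94.0, 71.8 and 79.7 CPM in 41BB+ cells and 134, 141 and 152 CPM in 41BB- cells. The 41BB+ libraries were all lower (log2 fold change -0.81 ± 0.13, adjusted p = 9.32e-06). S100a13, which takes part in the export of proteins that lack a signal peptide, had 13.3, 10.6 and 15.5 CPM against 28.8, 23.0 and 32.9 CPM. It was lower by 1.12 ± 0.22 on the log2 scale (adjusted p = 0.000190), again without overlap. S100a11, a partner of annexin A1 and annexin A2, had 18.9, 18.0 and 20.5 CPM in 41BB+ cells against 31.9, 36.6 and 30.8 CPM in 41BB- cells. All its 41BB+ libraries were below the 41BB- libraries, by 0.80 ± 0.24 (adjusted p = 0.00755).

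S100a11 has 5 near-identical copies in the genome, with at least 90% identity over 200 bases or more, whose counts summed to 24.6% of its own, and the sources used here do not say how reads with several matches were counted. With the copies added, its level was 23.8 ± 2.32 CPM in the 41BB+ libraries and 41.2 ± 3.82 CPM in the 41BB- libraries at 0 h (SD, n = 3). The direction at 0 h was thus the same with and without them, but the values of S100a11 itself remain uncertain.

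Anxa2 and Lgals1 did not pass at 0 h. Anxa2, the membrane partner of S100a10, had 5.60, 14.3 and 14.5 CPM in 41BB+ cells and 6.20, 9.08 and 7.84 CPM in 41BB- cells. The groups overlapped through the low replicate 1, and the log2 fold change of 0.57 ± 0.39 did not pass (adjusted p = 0.267). Without that 41BB+ library it was 0.89 with an adjusted p of 0.0385. Lgals1 had 23.0, 27.2 and 32.6 CPM in 41BB+ cells and 24.8, 21.1 and 20.8 CPM in 41BB- cells, which overlapped (0.30 ± 0.17, adjusted p = 0.155).

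S100a6, known as calcyclin, was near the limit of these libraries at 0 h. It had 1, 4 and 13 counts in the 41BB+ libraries and 5, 9 and 17 counts in the 41BB- libraries, or 0.295, 1.14 and 3.42 CPM against 1.55, 2.92 and 5.13 CPM. The 41BB+ library was the lower of its number in 3 of 3 numbers, but the groups overlapped. The fitted log2 fold change was -0.94 ± 0.65, and -2.13 without the 41BB+ library of replicate 3. Both are given without a test, since the gene was in the fit only through its 72 h libraries.

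**Figure D1:**
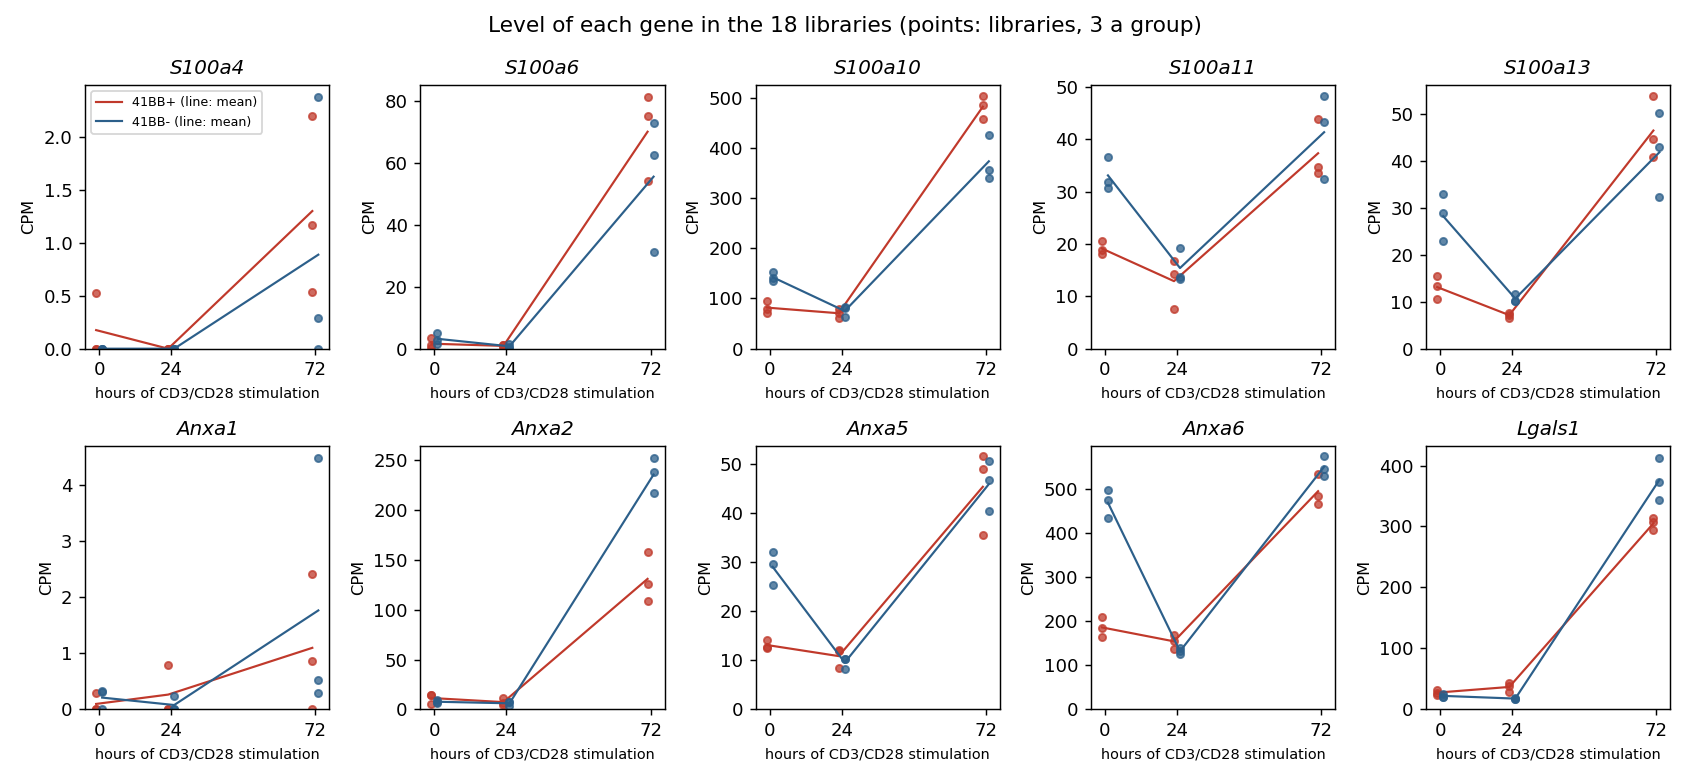
CPM (linear axis) of each of the 10 genes against hours of CD3/CD28 stimulation (to scale, with the populations set slightly apart), 1 point per library and a line through the group means. Every mean line climbs from 24 h to 72 h, the 41BB- line of Anxa6 first drops from 468 to 132 CPM, and at 0 h the 41BB- points of S100a10, S100a11, S100a13, Anxa5 and Anxa6 lie above all 41BB+ points.

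Over the first day of stimulation 5 of the 9 members other than S100a6 fell in 41BB- cells and 0 rose: S100a10, S100a11, S100a13, Anxa5 and Anxa6, the same genes that had been higher in 41BB- cells at 0 h. Of all genes tested, 27.6% fell and 29.0% rose in 41BB- cells. In 41BB+ cells 1 of the 9 fell, S100a13, and 1 rose, Lgals1, where 16.5% of all genes fell and 18.1% rose. The comparisons between populations at 0 h and from 0 h to 24 h share the 0 h libraries.

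Anxa6 in 41BB- cells came down to 139, 131 and 124 CPM at 24 h, from above 430 CPM in each library (log2 fold change -1.91 ± 0.11, adjusted p = 3.90e-14). In 41BB+ cells it was at 156, 169 and 138 CPM at 24 h, and the change of -0.22 ± 0.11 did not pass (adjusted p = 0.132). Anxa5 came down to 10.2, 10.2 and 8.24 CPM in 41BB- cells (-1.68 ± 0.22, adjusted p = 2.45e-07), and was at 12.2, 11.9 and 8.44 CPM in 41BB+ cells (-0.22 ± 0.23, adjusted p = 0.480). S100a10 fell in 41BB- cells to 82.6, 62.4 and 80.1 CPM, a 2.01-fold fall (SE 0.13 on the log2 scale, adjusted p = 1.83e-07). In 41BB+ cells it had 70.3, 79.8 and 61.6 CPM, which overlapped its 0 h libraries (-0.16 ± 0.13, adjusted p = 0.373).

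For these 3 genes the difference between the changes was itself tested. The population difference at 24 h, taken against that at 0 h, was higher by 1.69 ± 0.16 on the log2 scale for Anxa6 (adjusted p = 5.78e-09), by 1.45 ± 0.32 for Anxa5 (adjusted p = 0.00111) and by 0.85 ± 0.19 for S100a10 (adjusted p = 0.00112). Lgals1 also shifted, at 0.86 ± 0.23 (adjusted p = 0.00733). So 4 of the 9 members shifted towards 41BB+ cells and 0 towards 41BB- cells, where 9.03% of all genes shifted towards 41BB+ cells. Of the 3026 genes called in this comparison, 1187 shifted towards 41BB+ cells and the rest towards 41BB- cells.

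S100a13 and S100a11 moved less apart. S100a13 fell in both populations, to 7.65, 6.63 and 7.16 CPM in 41BB+ cells (-0.83 ± 0.25, adjusted p = 0.0111) and to 10.2, 10.2 and 11.6 CPM in 41BB- cells (-1.48 ± 0.23, adjusted p = 2.98e-06). The call in 41BB+ cells was lost without the 0 h library of replicate 3 (adjusted p = 0.0989) or the 24 h library of replicate 2 (adjusted p = 0.0645). S100a11 fell in 41BB- cells to 13.7, 19.2 and 13.4 CPM (-1.17 ± 0.24, adjusted p = 0.000150) and had 16.7, 14.3 and 7.67 CPM in 41BB+ cells (-0.52 ± 0.25, adjusted p = 0.107). The difference between the changes passed for neither, with 0.65 ± 0.34 for S100a13 (adjusted p = 0.187) and 0.64 ± 0.35 for S100a11 (adjusted p = 0.204). For S100a11 it passed without the 41BB+ 24 h library of replicate 3 (0.93, adjusted p = 0.0435).

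Lgals1 was the member that set the populations apart at 24 h. It had 38.6, 43.5 and 28.6 CPM in 41BB+ cells and 18.8, 17.5 and 17.0 CPM in 41BB- cells, so every 41BB+ library was above every 41BB- library. The difference was 2.25-fold (log2 fold change 1.17 ± 0.16, adjusted p = 7.36e-05), and at 24 h only 1.67% of all genes were higher in 41BB+ cells and 1.07% lower. It had risen from 0 h in 41BB+ cells (0.46 ± 0.16, adjusted p = 0.0220), a call lost without the 0 h library of replicate 1 (adjusted p = 0.0873) or the 24 h library of replicate 2 (adjusted p = 0.0926), or with only the compared groups in the fit (adjusted p = 0.0850). The 24 h library of replicate 2 is the one with the myeloid transcripts, and the 41BB- library of that number held 17.0 CPM of them. The difference between the populations at 24 h was 1.02 (adjusted p = 0.00140) without the former and 1.15 (adjusted p = 0.00116) without the latter. The part of the myeloid transcripts in it was not tested beyond that. In 41BB- cells Lgals1 changed by -0.40 ± 0.17 (adjusted p = 0.0527), which passed with DESeq2 (adjusted p = 0.0402).

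None of the other 8 members apart from S100a6 passed between the populations at 24 h in the fit without a block. Anxa6 was higher in 41BB+ cells in 3 of 3 numbers by 0.34 ± 0.11 (adjusted p = 0.118), and with the replicate number within each time as a block the same log2 difference passed (adjusted p = 0.0447). S100a13 was lower in each 41BB+ library than in every 41BB- library, yet the difference of -0.46 ± 0.26 did not pass (adjusted p = 0.500). Anxa5 (0.30 ± 0.24), Anxa2 (0.38 ± 0.42), S100a10 (0.03 ± 0.13) and S100a11 (-0.16 ± 0.25) overlapped between the groups. S100a6 had 1 to 6 counts per library at 24 h. Its mean was 0.905 ± 0.570 CPM in the 41BB+ libraries and 0.769 ± 0.577 CPM in the 41BB- libraries (SD, n = 3). In 41BB- cells S100a6 had come down from a mean of 3.20 CPM at 0 h, with every 24 h library below every 0 h library. In 41BB+ cells its libraries of 0 h and 24 h overlapped. The fall of S100a6 in 41BB- cells rests on few counts and is described without a test. Anxa2 was also low at 24 h, with 3.97, 11.9 and 6.14 CPM in 41BB+ cells and 7.66, 7.33 and 3.41 CPM in 41BB- cells. Its highest value of 24 h, 11.9 CPM, came from the 41BB+ library with the myeloid transcripts, and their part in that value was not tested.

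**Figure D2:**
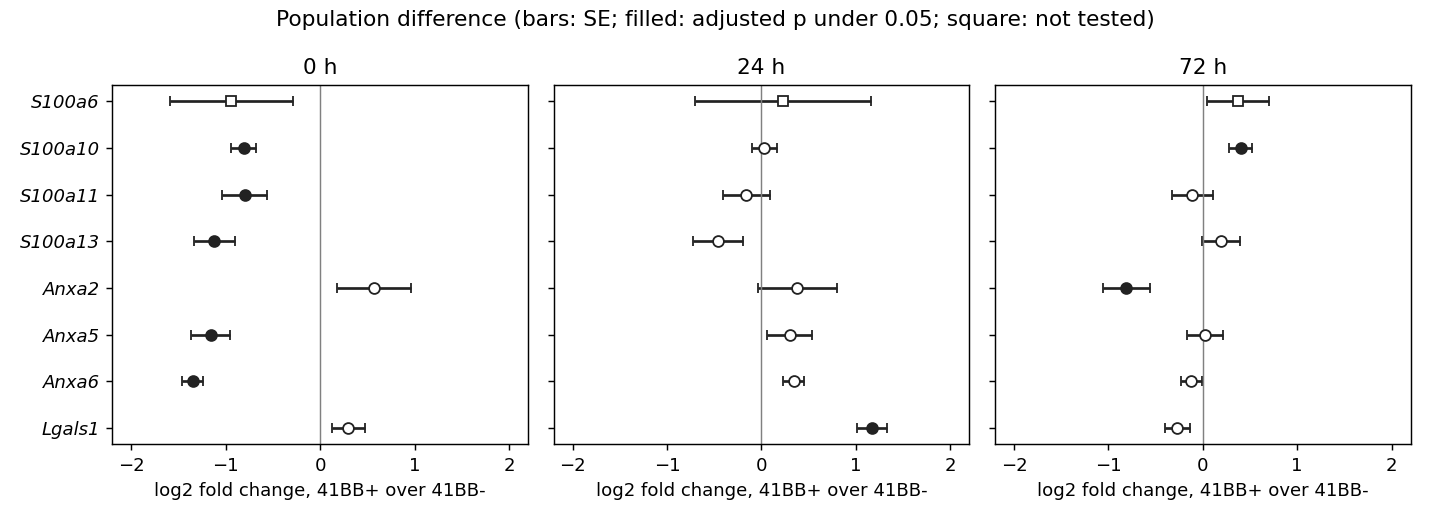
Log2 fold change of 41BB+ over 41BB- cells at 0 h, 24 h and 72 h for the 8 genes that passed the filter on low counts, with bars of 1 SE. Filled circles passed an adjusted p of 0.05, open circles did not, and squares mark S100a6, which was not tested. S100a10, S100a11, S100a13, Anxa5 and Anxa6 are filled on the left side at 0 h, Lgals1 alone at 24 h, and S100a10 and Anxa2 on opposite sides at 72 h.

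Between 24 h and 72 h the group mean of every member went up in both populations, which is the pattern the genes were picked with in view and is given as a description. In each population 9 of the 10 had every 72 h library above every 24 h library, the exceptions being Anxa1 in 41BB+ cells and S100a4 in 41BB- cells. Of all genes tested, 27.0% in 41BB+ and 22.4% in 41BB- cells were separated in this way. S100a4 and Anxa1 did not pass the filter and so are not among the genes tested. The separation of Anxa1 in 41BB- cells rests on 1 count at 72 h (0.291 CPM) against 1 count at 24 h (0.236 CPM).

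S100a6 had the largest fitted change. From at most 1.42 CPM in any 24 h library it went to 81.2, 75.1 and 54.1 CPM in 41BB+ cells and to 73.0, 62.5 and 31.4 CPM in 41BB- cells. The fitted change was 79.2-fold in 41BB+ cells (log2 fold change 6.31 ± 0.52) and 71.7-fold in 41BB- cells (6.16 ± 0.54), with 10 and 9 counts over the 24 h groups beneath it. The value in 41BB- cells was 6.92 without the 24 h library of replicate 2. The 41BB+ library was the higher of its number in 3 of 3 numbers at 72 h, while the groups overlapped and differed by 0.37 ± 0.33. Replicate 3 was the lowest library of both populations.

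Anxa2 and Lgals1 came next in both populations. Anxa2 went to 126, 108 and 158 CPM in 41BB+ cells (18.5-fold, 4.21 ± 0.32) and to 217, 237 and 252 CPM in 41BB- cells (42.2-fold, 5.40 ± 0.33). Lgals1 went to 314, 307 and 295 CPM in 41BB+ cells (8.67-fold, 3.12 ± 0.15) and to 373, 413 and 344 CPM in 41BB- cells (23.4-fold, 4.55 ± 0.16). Both genes thus ended with every 41BB- library above every 41BB+ library.

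S100a10 and S100a13 changed less, with fitted log2 values of 2.84 ± 0.13 and 2.76 ± 0.23 in 41BB+ cells and of 2.47 ± 0.13 and 2.11 ± 0.22 in 41BB- cells. S100a10 reached 486, 503 and 457 CPM in 41BB+ cells and 339, 425 and 355 CPM in 41BB- cells. S100a13 reached 40.9, 53.8 and 44.7 CPM in 41BB+ cells and 42.9, 50.3 and 32.3 CPM in 41BB- cells, where the groups overlapped.

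Anxa5 reached 35.4, 51.5 and 49.0 CPM in 41BB+ cells and 46.6, 50.6 and 40.3 CPM in 41BB- cells, with log2 values of 2.13 ± 0.21 and 2.41 ± 0.22. Anxa6 reached 465, 484 and 533 CPM in 41BB+ cells and 544, 529 and 575 CPM in 41BB- cells, with log2 values of 1.75 ± 0.11 and 2.21 ± 0.11. S100a11 had the smallest change of the fitted members in 41BB- cells and in 41BB+ cells, to 33.5, 34.6 and 43.9 CPM in 41BB+ cells (1.61 ± 0.24) and to 32.4, 43.3 and 48.4 CPM in 41BB- cells (1.56 ± 0.24).

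The remaining members, S100a4 and Anxa1, were barely detected. S100a4, a binder of non-muscle myosin, had 0 counts in all 6 libraries of 24 h and 8, 4 and 2 counts in 41BB+ and 9, 1 and 0 counts in 41BB- cells at 72 h. With 3 counts put in place of the 0 of each 24 h group, the lower bound of the ratio of 72 h to 24 h was 4.85 in 41BB+ cells and 3.16 in 41BB- cells. Of its exon bases 51.7% are shared with the gene model Gm42674 on the same strand, which had 0 counts. Anxa1, known as an anti-inflammatory annexin, had 0, 3 and 9 counts in 41BB+ and 2, 1 and 19 counts in 41BB- cells at 72 h. The ratio to 24 h was 4.15 (95% counting interval 1.12 to 22.9) in 41BB+ and 20.9 (3.37 to 861) in 41BB- cells, and replicate 3 gave most of the 72 h counts of Anxa1 in both. Only counting error enters these intervals, and the lower bounds of S100a4 are given without an error.

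Replicate 3 is the number whose sex-linked transcripts differed between 24 h and 72 h. With all libraries of that number left out, the log2 changes from 24 h to 72 h ran from 1.21 (S100a11) to 6.03 (S100a6) in 41BB+ cells and from 1.30 (S100a11) to 6.22 (S100a6) in 41BB- cells.

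**Figure D3:**
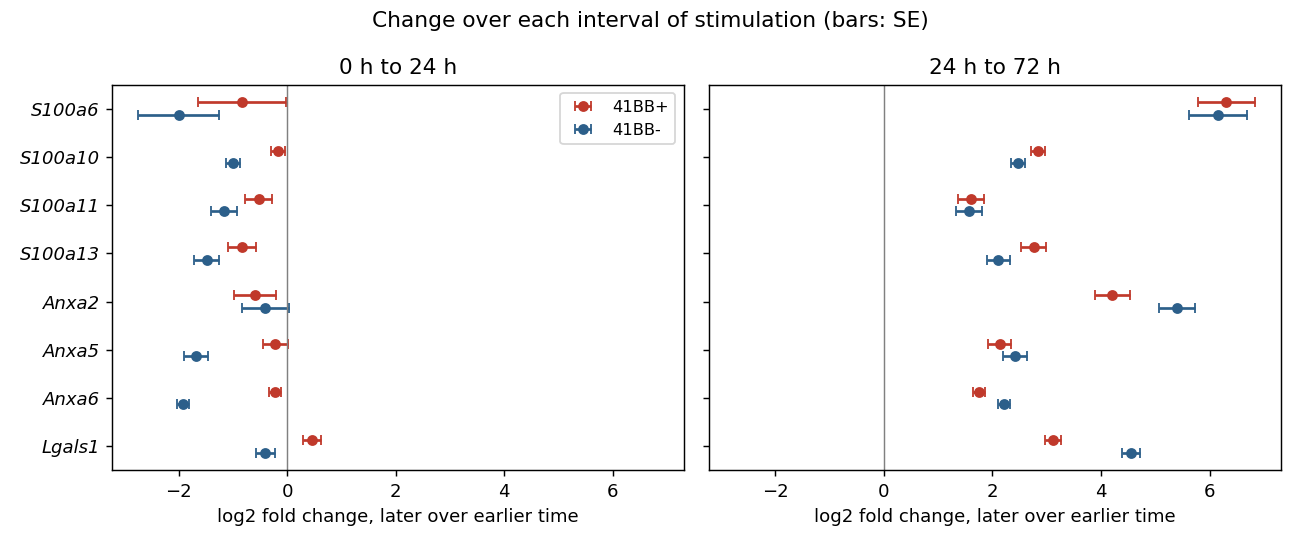
Log2 fold change from 0 h to 24 h (left) and from 24 h to 72 h (right) in 41BB+ and 41BB- cells for the 8 genes that passed the filter on low counts, with bars of 1 SE. On the left the 41BB- values of Anxa6, Anxa5 and S100a10 lie well below those of 41BB+ cells, and on the right every value is above 1, with S100a6 above 6 in both populations.

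Set against freshly sorted cells, the 72 h level in 41BB- cells was above the start by little for some members and by much for others. In 41BB- cells S100a11, S100a13, Anxa5 and Anxa6 stood at 72 h at 0.40 ± 0.22, 0.63 ± 0.21, 0.73 ± 0.20 and 0.30 ± 0.11 on the log2 scale relative to 0 h. S100a10 stood at 1.46 ± 0.13, S100a6 at 4.17 ± 0.44, Lgals1 at 4.15 ± 0.16 and Anxa2 at 5.00 ± 0.33. In 41BB+ cells, which started lower, the corresponding values were 1.08 ± 0.23 for S100a11, 1.94 ± 0.22 for S100a13, 1.91 ± 0.21 for Anxa5 and 1.53 ± 0.11 for Anxa6. They were 2.68 ± 0.13 for S100a10, 5.48 ± 0.48 for S100a6, 3.58 ± 0.15 for Lgals1 and 3.62 ± 0.31 for Anxa2. All 72 h libraries lay above all 0 h libraries for 9 of the 10 members in 41BB+ and 6 of the 10 in 41BB- cells. Of all genes tested, 22.6% and 27.9% did. Among the 9 was S100a4, which did not pass the filter. Its separation rests on 2 counts at 72 h (0.539 CPM) against 2 counts at 0 h (0.526 CPM). The 41BB+ value of S100a6 was 6.71 without the 0 h library of replicate 3.

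At 72 h 1 of the 9 members other than S100a6 was higher in 41BB+ cells and 1 was lower. S100a10 was higher in 41BB+ cells, by 0.40 ± 0.12 on the log2 scale or 1.32-fold (adjusted p = 0.0189), and Anxa2, its partner, was lower, by 0.81 ± 0.25 or 1.75-fold (adjusted p = 0.0281). Over all genes, 6.71% were higher and 12.2% lower in 41BB+ cells at 72 h, so the counts of members were near the shares of all genes. Neither group overlapped, but both calls were fragile. That of S100a10 was lost without the 41BB- library of replicate 1 (adjusted p = 0.0543). That of Anxa2 was lost with DESeq2 (adjusted p = 0.111) and without the 41BB+ libraries of replicate 1 (0.112) or 2 (0.160) or the 41BB- libraries of replicate 1 (0.0660), 2 (0.101) or 3 (0.125). Lgals1 was lower in every 41BB+ library, with a difference of -0.27 ± 0.13 that did not pass (adjusted p = 0.155). Anxa6 (-0.12 ± 0.11), S100a13 (0.19 ± 0.20), S100a11 (-0.11 ± 0.22) and Anxa5 (0.02 ± 0.19) overlapped between the populations.

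The population difference at 72 h was also taken against that at 0 h, a comparison added after the values were seen. It was higher for S100a10 (1.22 ± 0.18, adjusted p = 2.28e-06), S100a13 (1.30 ± 0.30, adjusted p = 0.000813), Anxa5 (1.18 ± 0.29, adjusted p = 0.00146) and Anxa6 (1.23 ± 0.15, adjusted p = 1.79e-07). It was lower for Anxa2 (-1.38 ± 0.46, adjusted p = 0.0210) and Lgals1 (-0.57 ± 0.21, adjusted p = 0.0296), and it did not pass for S100a11 (0.69 ± 0.32, adjusted p = 0.0922). So 4 of the 9 members shifted towards 41BB+ cells and 2 towards 41BB- cells, where 17.6% and 23.3% of all genes did. The call of Lgals1 was lost with DESeq2 (adjusted p = 0.0663) and without 9 of the 12 libraries in turn, and that of Anxa2 without 7 of the 12. The call of S100a11 was gained with only the compared groups in the fit (adjusted p = 0.0351) and without the 41BB- 72 h library of replicate 3 (adjusted p = 0.0408).

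As a share of all counts, the 10 genes together made up 0.0354% ± 0.00347 of the 41BB+ and 0.0734% ± 0.00413 of the 41BB- libraries at 0 h (SD, n = 3). The shares were 0.0301% ± 0.00411 and 0.0267% ± 0.00138 at 24 h, and 0.161% ± 0.00271 and 0.172% ± 0.00786 at 72 h. Annexins made up the largest part in every library of 0 h and 24 h and in 41BB- cells at 72 h, where they had 0.0832% against 0.0513% for the S100 members and 0.0376% for Lgals1. In 41BB+ cells at 72 h the annexins (0.0671% ± 0.00625) and the S100 members (0.0637% ± 0.00343) were close, with the S100 members ahead in replicates 1 and 2, and Lgals1 had 0.0305%.

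Per length, the order of the members changed with time. As CPM per kilobase of exons, Anxa6 led in 41BB- cells at 0 h with a mean of 160 and was followed by S100a10 with 117, whereas in 41BB+ cells S100a10 (67.5) and Anxa6 (63.4) were close. At 24 h S100a10 and Anxa6 led in both populations, with 58.2 and 52.6 in 41BB+ and 61.9 and 44.9 in 41BB- cells. At 72 h S100a10 led in 41BB+ cells with 398, ahead of Lgals1 with 338 and Anxa6 with 169, and Lgals1 led in 41BB- cells with 417, ahead of S100a10 with 308 and Anxa6 with 187. S100a6, despite its fold change, had rank 6 of the members in 41BB+ cells at 72 h with 51.3 and rank 7 in 41BB- cells with 40.7.

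**Figure D4:**
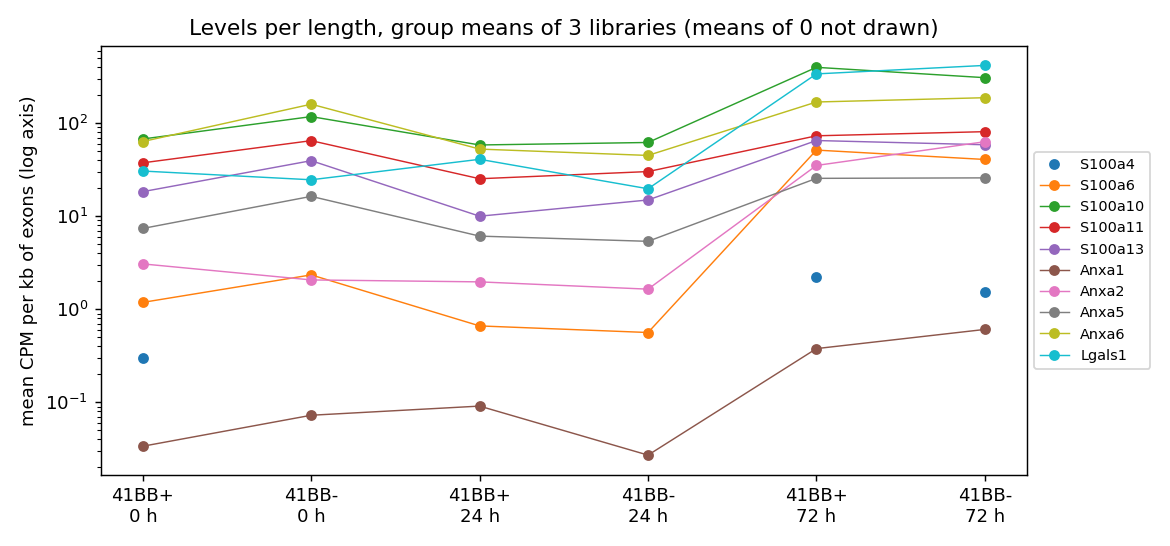
Group means (3 libraries) of each gene in CPM per kilobase of exons, on a log axis, over the 6 groups, with group means of 0 not drawn. S100a6 and Anxa2 climb from the bottom at 24 h into the range of S100a13 at 72 h, S100a10, Lgals1 and Anxa6 are on top at 72 h, and S100a4 and Anxa1 stay lowest.

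The order of the 6 groups showed 3 shapes. For S100a10, S100a11, S100a13, Anxa5 and Anxa6 the 2 groups of 72 h came first, followed by the 41BB- cells of 0 h and then by the 41BB+ cells of 0 h, and these last groups did not overlap. Anxa5 and Anxa6 were the most alike pair of members, with a root mean square difference of 0.165 between their centred group means of log2(CPM + 1), followed by S100a13 and Anxa5 with 0.215. For Anxa2 and Lgals1 the order at 72 h was 41BB- before 41BB+, with no overlap, and all groups of 0 h and 24 h lay far beneath. For S100a6 the groups next to each other in the order overlapped everywhere except between 72 h and 0 h. These are descriptions over 6 group means that share their libraries.

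By the same measure, among 9393 tested genes with a mean of at least 5 CPM, the genes most like S100a6 were Gpr15 (0.332), Gucy2e (0.489), Maats1 (0.518), Anxa2 (0.543) and Cbfa2t3 (0.650). Gpr15, a homing receptor for the large intestine, went from 1.90 CPM in 41BB+ cells and 0.252 CPM in 41BB- cells at 24 h to 75.4 and 44.0 CPM at 72 h. Those most like Lgals1 were Maats1 (0.267), Xist (0.321), Trib3 (0.384), Prr5 (0.393) and Zbtb7b (0.396). Xist is made in female cells alone. The replicate 3 libraries had 0 or 1 count of it at 0 h and 24 h and 2214 and 2459 at 72 h, and their part in its place on this list was not tested. Zbtb7b, a transcription factor of helper T cells that effector CD8+ T cells can also express, went from 2.62 CPM in 41BB+ cells and 1.12 CPM in 41BB- cells at 24 h to 22.6 and 41.3 CPM at 72 h.

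The rest of the families was less expressed or less uniform. Of 13 other S100 genes (S100pbp, a gene of an S100P-binding protein, was put with them), 1 was tested. That gene, S100pbp, was lower in 41BB+ cells at 0 h (-0.46, adjusted p = 0.0359) and did not pass at 24 h or 72 h. Of 8 other annexins 4 were tested. At 0 h 1 of these was lower and 0 higher in 41BB+ cells, where 17.3% of all genes were lower and 22.2% higher. The gene that was lower was Anxa11 (-0.95, adjusted p = 0.000450). From 0 h to 24 h in 41BB- cells Anxa11 fell (-1.15, adjusted p = 2.88e-05), while Anxa7 rose (0.59, adjusted p = 0.00567). The weakly expressed Anxa4 went up by 1.98, from 11 to 52 counts over the groups. It passed the filter only through later libraries, so its change is described without a test.

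Of 10 other galectin genes, with the galectin-3-binding protein gene among them, 6 were tested. At 0 h 2 were lower and 0 higher in 41BB+ cells, where 17.3% of all genes were lower and 22.2% higher. The 2 were Lgals9 (-0.92, adjusted p = 0.000524), a galectin that binds Tim-3, and Lgals8 (-1.10, adjusted p = 0.000304). From 0 h to 24 h in 41BB- cells 4 of the 6 fell and 2 rose, where 27.6% of all genes fell and 29.0% rose. Among those that fell were Lgals3bp (-2.78, adjusted p = 2.27e-10), Lgals9 (-1.85, adjusted p = 1.94e-08) and Lgals8 (-2.03, adjusted p = 4.62e-08). Lgals3, the gene of galectin-3, went up early, from 0.552 to 5.07 CPM in 41BB+ cells (3.15) and from 0.417 to 4.04 CPM in 41BB- cells (3.08). It had only 6 and 4 counts over the 0 h groups and passed the filter through its later libraries alone. Its early rise is thus described without a test, although the count of 2 that rose includes it. Its level at 72 h was 113 ± 33.3 CPM in the 41BB+ libraries and 122 ± 16.2 CPM in the 41BB- libraries (SD, n = 3). Lgals1 by contrast was at 17.0 CPM or more in every library of 0 h and 24 h.

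Among 18 genes of binding partners, the cytoskeleton and membrane repair, 14 were tested, and at 0 h 9 were lower in 41BB+ cells and 0 higher, where 17.3% of all genes were lower and 22.2% higher. Their median log2 fold change was -0.57, where that of all genes was 0.01. Crip1, a small LIM-domain protein, was lower by 1.64 (adjusted p = 2.31e-08), and the actin-sequestering thymosins Tmsb10 and Tmsb4x by 0.81 (adjusted p = 6.15e-05) and 0.57 (adjusted p = 9.59e-05). From 0 h to 24 h in 41BB- cells 9 of the 14 fell and 1 rose (27.6% and 29.0% of all genes), with a median of -0.65 against -0.07 for all genes. Crip1 fell by 2.38 (adjusted p = 2.01e-11), Tmsb10 by 1.69 (adjusted p = 3.50e-10) and Tmsb4x by 1.29 (adjusted p = 5.65e-11), and the gene that rose was Capg, an actin-capping protein (2.22, adjusted p = 6.57e-09). The population difference at 24 h against that at 0 h was higher for 7 of the 14 and lower for 0, with Crip1 at 1.98 (adjusted p = 4.04e-06). It was higher for 9.03% of all genes, which were 1187 of the 3026 called in that comparison. The list was chosen with earlier results of these libraries known, so it is no independent evidence of the members' pattern.

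Of 6 genes of calpains and penta-EF-hand proteins, calcium-dependent enzymes and sensors of another fold, 5 were tested. At 0 h 2 were lower in 41BB+ cells and 0 higher, where 17.3% of all genes were lower and 22.2% higher. The 2 were Capn1 (-0.56, adjusted p = 0.000854) and Capn2 (-0.62, adjusted p = 0.0112). In 41BB- cells 4 of the 5 fell from 0 h to 24 h and 0 rose, where 27.6% of all genes fell and 29.0% rose, with Capn1 at -0.96 (adjusted p = 3.97e-07), Capn2 at -1.16 (adjusted p = 1.41e-05), Sri at -0.98 (adjusted p = 2.67e-05) and Capns1 at -0.49 (adjusted p = 0.00476).

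All 5 genes of surface glycoproteins listed as counter-receptors of galectin-1 were tested. From 0 h to 24 h 4 of the 5 fell in each population, where 16.5% of all genes fell in 41BB+ and 27.6% in 41BB- cells, among them Ptprc (CD45) by 0.83 in 41BB+ cells (adjusted p = 1.92e-08) and Spn (CD43) by 0.85 (adjusted p = 7.30e-07), Cd2 by 2.39 (adjusted p = 6.66e-14) and Cd7 by 3.31 (adjusted p = 6.93e-07) in 41BB- cells. Lamp1, the fifth, rose in 41BB- cells (0.33, adjusted p = 0.0332) and did not pass in 41BB+ cells (-0.13, adjusted p = 0.478). The changes of Lgals1 itself over that interval were 0.46 in 41BB+ and -0.40 in 41BB- cells. At 0 h 2 of the 5 were lower in 41BB+ cells, Cd2 (-1.10, adjusted p = 1.92e-07) and Cd7 (-2.11, adjusted p = 0.000118). Lamp1 (0.40, adjusted p = 0.0160) was the 1 that was higher. Of all genes, 17.3% were lower and 22.2% higher. At 72 h 3 of the 5 were higher in 41BB+ cells and 0 lower, where 6.71% of all genes were higher and 12.2% lower, namely Ptprc (0.41, adjusted p = 0.00133), Spn (0.44, adjusted p = 0.00852) and Cd7 (1.34, adjusted p = 0.0121). Lgals1 itself was -0.27 at that time and did not pass.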

How the data were processed

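RNA of 18 libraries was prepared with a stranded total-RNA kit, per the labels' protocols. The submitters' processing notes name FastQC 0.11.9, Trimmomatic 0.38, HISAT2 2.2.1, featureCounts and the build GRCm38. Neither the strand setting nor the handling of reads with several matches is given in the sources used here. The 1 table used, as deposited, holds the authors' whole-number read counts per gene, not normalized. GENCODE M21 gave symbols for 55227 of the 55487 identifiers.

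CPM is the count divided by the library total, times 1e+06. Tests used edgeR 4.0.16 (R 4.3.3): filterByExpr by group (minimum count 10, total 15), TMM factors, robust quasi-likelihood fit of 6 group means over all 18 libraries, and Benjamini-Hochberg adjustment over 13150 genes with a threshold of 0.05. The common biological coefficient of variation was 0.18. The chi-square per degree of freedom between replicates ran from 4.56 to 8.90, so none was a copy of another. P-values measure the spread between these libraries. The edgeR step was tested on simulated data. Depth limits weak genes: 3 counts over a group equal 0.261 to 0.312 CPM.

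The labels number the libraries by experiment, taken as marking a shared experiment within a time. Over 12699 autosomal genes, deviations from the group means correlated by 0.106 in the median of the 9 pairs of 1 number and time (lowest -0.0426, 5 above 0.1) and by -0.0633 in that of the 18 other pairs of a time, and the pairs were alike in sex-linked transcripts.

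The members and lists were chosen with earlier results of these data known. All members are named, and of each list up to 4 genes with the smallest adjusted p in a tested comparison. The genes most like S100a6 and Lgals1 are the 5 with the smallest root mean square difference, without predicted genes and receptor segments. S100a6, at first meant to be tested at 0 h, is described only, because it passed the filter through its 72 h libraries alone. The early rises of Lgals3 and Anxa4 are described only for a like reason, their few counts at 0 h. Tried instead were DESeq2 1.42.0, RLE factors, a replicate block, no filter, only the compared groups, limma voom (limma 3.58.1), removal of mitochondrial and ribosomal protein genes, a minimum of 2-fold, and each library left out. Leaving out number 3, the block within times for the differences of differences, and the comparison of 72 h with 0 h between populations were added after seeing the data. Near copies were found with blastn 2.17.0.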

Additional observations from a re-analysis of the deposited data

Results flagged for a closer look

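The results given here stood out because the population difference itself changed with time, by the edgeR test of the difference of differences. At 24 h against 0 h the log2 shift towards 41BB+ cells was 1.69 for Anxa6, 1.45 for Anxa5, 0.85 for S100a10 and 0.86 for Lgals1. For Anxa6, Anxa5 and S100a10 it came with the fall in 41BB- cells, and for Lgals1 with a rise of 0.46 in 41BB+ and a value of -0.40 in 41BB- cells. At 72 h against 0 h, a comparison added after the values were seen, the shift was 1.22 for S100a10, 1.30 for S100a13, 1.18 for Anxa5 and 1.23 for Anxa6, and -1.38 for Anxa2 and -0.57 for Lgals1. Both comparisons share the 0 h libraries. The dendritic markers, which summed to up to 81.0 CPM in 41BB+ and 34.7 CPM in 41BB- libraries at 0 h, moved with time as well, and their part in these results was not tested.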

How the results depend on the processing

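Values of single members kept their direction and their side of the threshold (where not tested, stayed within 1 SD) in 572 of 624 cases with 1 library left out and in 682 of 708 cases under the other alternatives. With a minimum of 2-fold, genes called went to 1036 at 0 h, 4 at 24 h and 30 at 72 h between populations, to 841 over the first day in 41BB+ and to 2867 in 41BB- cells. Members called went to 1 lower at 0 h, 0 higher at 24 h, 0 higher and 0 lower at 72 h, 0 higher and 0 lower in 41BB+ and 3 lower in 41BB- cells over the first day. The replicate block within each time gave 577 genes and 2 members higher at 24 h, and neither it nor a block by number over all times changed any other call. Limma voom gave 550 genes at 24 h, DESeq2 gave 0 members lower at 72 h, and only the compared groups in the fit gave 0 members higher over the first day in 41BB+ cells. For the population difference at 72 h against that at 0 h, DESeq2, RLE factors, no filter, only the compared groups and voom each gave 1 member lower. Anxa5 at 72 h was -0.02 with voom. The causes were not tested, apart from the stricter fold and the fewer libraries by construction.

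With 1 library left out, genes called ran from 4471 to 4807 at 0 h, from 181 to 261 at 24 h and from 1840 to 2307 at 72 h between populations, where the lower counts go with fewer libraries. Members called ran from 0 to 1 higher at 0 h, where 5 were lower each time, from 0 to 1 higher and 0 to 1 lower at 72 h, from 0 to 1 higher and 0 to 2 lower over the first day in 41BB+ cells, and from 4 to 5 higher and 0 to 2 lower for the population difference at 72 h against that at 0 h. Directions turned for differences that did not pass: between populations at 24 h, S100a10 ran from -0.10 to 0.12, S100a11 from -0.39 to 0.12 and Anxa2 from -0.16 to 0.66. At 72 h S100a11 ran from -0.21 to 0.08 and Anxa5 from -0.02 to 0.23, and the Anxa2 population difference at 24 h against 0 h ran from -0.72 to 0.10. S100a6, described without a test, was 0.39 from 0 h to 24 h in 41BB+ cells without the 0 h library of replicate 3, and ran from -0.17 to 1.04 between populations at 24 h. With only the compared groups in the fit S100a6 gave no value at 0 h, since it did not pass the filter.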

Other observations

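Further partners of the members are named here after their values were seen. Ahnak, the gene of a giant scaffold protein that binds the complex of S100a10 and annexin A2, was at 202 ± 35.7 CPM in the 41BB+ libraries and 497 ± 62.0 CPM in the 41BB- libraries at 0 h (SD, n = 3), and was lower in 41BB+ cells by 1.30 ± 0.23 on the log2 scale (SE, adjusted p = 0.000218). At 24 h it was at 118 ± 32.1 and 101 ± 25.5 CPM, and at 72 h at 703 ± 131 and 843 ± 147 CPM. Its fall over the first day in 41BB- cells was -2.38 ± 0.24 (adjusted p = 2.80e-07), and the population difference at 24 h against that at 0 h was 1.64 ± 0.33 (adjusted p = 0.00145).

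Vim, the gene of the intermediate filament vimentin, went the other way in 41BB+ cells. It was at 66.8 ± 18.2 CPM in the 41BB+ libraries and 270 ± 23.8 CPM in the 41BB- libraries at 0 h, and at 336 ± 62.0 and 148 ± 12.7 CPM at 24 h (SD, n = 3). It rose in 41BB+ cells by 2.37 ± 0.22 (adjusted p = 1.87e-07) and fell in 41BB- cells by 0.94 ± 0.21 (adjusted p = 0.00100), and the difference of the changes was 3.31 ± 0.30 (adjusted p = 3.85e-07). At 72 h it was at 1032 ± 264 and 1542 ± 273 CPM. Lgals1 among the members also was higher in 41BB+ cells at 24 h.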
